A study of Mus musculus with 12 samples.

Results

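The mouse Fc gamma receptor genes and their signalling partners were followed across bone marrow derived macrophages (MΦs) and macrophages co-cultured with myeloma cells (MM-MΦs), with and without BMI1. The members were taken by gene symbol from the raw count table: the activating receptors Fcgr1, Fcgr3 and Fcgr4, the inhibitory receptor Fcgr2b, and the partners Fcer1g and Syk. They were 6 of 55573 genes, and all 6 passed the filter on low counts; the rule went by symbol and used no measured value.

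Fc gamma receptors bind the constant part of IgG and so tie antibodies to the phagocytes that carry them. The activating receptors work through the common gamma chain encoded by Fcer1g, which carries an immunoreceptor tyrosine-based activation motif (ITAM); Src family kinases phosphorylate it and Syk docks on it, which leads to phagocytosis, cytokine release and killing of antibody-coated cells. Fcgr2b carries an inhibitory motif (ITIM) that recruits the lipid phosphatase SHIP, so the balance between activating and inhibitory receptors sets the threshold for a response to IgG.

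The study asked what BMI1, a Polycomb group protein, does in macrophages of multiple myeloma. RNA was sequenced in 4 groups with 3 replicate libraries each: BMI1-KO MM-MΦs, BMI1-KO MΦs, wt MM-MΦs and wt MΦs. All mice were C57BL/6, carried BMI1fl/fl, and at 6 to 8 weeks of age were injected every other day with poly I:C, 5 doses of 15 mg/kg. BMI1-KO mice carried Mx1-Cre besides, and wt mice had the floxed alleles without Cre. Marrow was taken 4 weeks after the last dose, and adherent cells were grown for 7 days in 5 ng/mL M-CSF. MM-MΦs had a further 48 h with 5TGM1, a mouse myeloma line that secretes an IgG2b kappa paraprotein. No matching 48 h without 5TGM1 is stated for MΦs, so co-culture and longer culture cannot be told apart here. CD11b+ F4/80+ cells were sorted from every culture before RNA extraction. The Mx1 promoter answers to interferon and is active in many cell types, so deletion was not limited to macrophages, and poly I:C, itself an inducer of interferon, was given to both genotypes. The labels do not say whether the replicates came from separate mice, so p-values cover only the scatter among these libraries, which may be technical.

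The libraries held 9662279 to 11142768 counts, spread over 17611 to 18370 detected genes. Bmi1 had 0 counts in all 6 BMI1-KO libraries, against 281 to 364 counts in wt MM-MΦs and 251 to 321 counts in wt MΦs. The deposited FPKM values of the BMI1-KO libraries implied totals 512 to 734 counts above the summed counts, against -1 to 0 in wt libraries, so whether the 0 of Bmi1 was measured or set before deposit cannot be told from the files, and it was not used to check the labels. The 11 macrophage markers, among them Adgre1, which encodes F4/80, had a mean of at least 1 CPM (counts scaled to a common library size) in every group, with summed levels of 15700 to 21100 CPM in BMI1-KO MM-MΦs, 16200 to 20100 CPM in BMI1-KO MΦs, 15900 to 23800 CPM in wt MM-MΦs and 15700 to 21700 CPM in wt MΦs.

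On GRCm38, 4 members lay within 276 kb of chromosome 1: Fcgr2b at chr1:170958617-170976547 (minus strand), Fcgr4 at chr1:171018920-171029761 (plus strand), Fcgr3 at chr1:171051174-171064935 (minus strand) and Fcer1g at chr1:171229572-171234365 (minus strand). Fcgr1 lay at chr3:96282909-96293969 (minus strand) and Syk at chr13:52583173-52648792 (plus strand). Fcgr3 and Fcgr2b, receptors of opposite sign, share an identical coding stretch of 129 bases at the end of exon 3 and the start of exon 4 of both genes. It is printed because reads that fall inside it cannot be given to either gene. In Fcgr3 it spans chr1:171057691-171057792 and chr1:171054167-171054193, and in Fcgr2b chr1:170967980-170968081 and chr1:170966674-170966700.
Fcgr3 and Fcgr2b, shared coding stretch: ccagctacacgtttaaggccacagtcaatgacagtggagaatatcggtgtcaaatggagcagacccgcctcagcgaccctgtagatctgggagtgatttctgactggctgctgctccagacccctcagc
Of all stretches of 100 bases in the transcripts of Fcgr3, 2.54% also occurred in another gene, and of those of Fcgr2b 1.4%. At 150 bases none was shared, and the other 4 members shared none at 50, 100 or 150 bases. The counts of Fcgr3 and Fcgr2b carry this uncertainty, since the sources used here do not give the read length. An antisense gene, Gm38204, overlaps Fcgr2b with 0 to 3 counts per library, too few to matter for its level.

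Promoters of Fc gamma receptor genes are known to carry sites for factors of the macrophage lineage and of the interferon response. RefSeq windows of the 250 bases before the annotated start, on GRCm38.p6, were found for 6 of 6 members (8 windows), and both strands were searched for the interferon gamma activated site bound by STAT dimers (TTCNNNGAA), the core of the interferon stimulated response element (GAAA, any 2 bases, then GAAA) and the core bound by PU.1 (GAGGAA), the master factor of the macrophage lineage. These motifs occurred in 7.02%, 2.98% and 23.3% of 32851 windows of that length. The windows of Fcgr1, Fcgr4 and Fcgr2b are printed because the first 2 genes stood higher in MM-MΦs in the results that follow and Fcgr2b is their inhibitory counterpart; capitals mark motif matches.
Fcgr1, chr3:96293970-96294219, minus strand: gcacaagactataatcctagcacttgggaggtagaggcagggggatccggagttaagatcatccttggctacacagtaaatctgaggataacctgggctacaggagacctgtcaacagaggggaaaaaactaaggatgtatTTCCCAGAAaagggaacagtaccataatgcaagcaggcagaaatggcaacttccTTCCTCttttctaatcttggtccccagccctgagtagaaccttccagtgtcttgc
Fcgr4, chr1:171018676-171018925, plus strand: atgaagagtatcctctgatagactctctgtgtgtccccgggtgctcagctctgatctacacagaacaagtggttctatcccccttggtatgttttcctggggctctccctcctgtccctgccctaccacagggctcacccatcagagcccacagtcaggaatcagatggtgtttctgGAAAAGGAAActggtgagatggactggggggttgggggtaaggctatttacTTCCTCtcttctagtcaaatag
Fcgr2b, chr1:170976072-170976321, minus strand: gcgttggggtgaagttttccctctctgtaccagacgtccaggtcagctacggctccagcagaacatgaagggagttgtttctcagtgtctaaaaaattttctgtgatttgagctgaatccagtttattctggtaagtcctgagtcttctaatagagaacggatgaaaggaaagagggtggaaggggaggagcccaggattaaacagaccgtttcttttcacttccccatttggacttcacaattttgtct
In Fcgr1 the match to the activated site stood at -109 to -101 from the start, and the PU.1 core, read on the opposite strand, at -55 to -50. In Fcgr4 the match to the response element stood at -73 to -64 and the PU.1 core, again on the opposite strand, at -22 to -17. The Fcgr2b and Fcer1g windows held no match. The 2 Fcgr3 windows overlap and held the same PU.1 core next to the start, and 1 of the 2 Syk windows held such a core next to its start. RefSeq starts differ from the gene ends given above, and the windows of Fcgr2b, Fcgr3 and Syk lie inside those gene spans. The bases before the outer 5' end of these genes were not searched, so the Fcgr2b window does not speak for them. A match is a description of letters and not a measured binding site.

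Per length of transcript the members were among the most abundant messages of these cells. Over the 12 libraries Fcer1g had a mean level of 500 FPKM (deposited values, scaled to exon length and library total), above 99.7% of the genes tested. Fcgr3, the main activating receptor gene, averaged 350 FPKM, above 99.6% of genes, and Syk 92.8 FPKM, above 97.6%. The remaining receptors lay close together, with mean levels of 43.4 FPKM for Fcgr4, 39.2 FPKM for Fcgr2b and 37.8 FPKM for Fcgr1. Their order was not the same in the 4 groups. In BMI1-KO MM-MΦs Fcgr1 stood first of them with a level of 56.9 ± 5.41 FPKM, against 53 ± 9.4 FPKM for Fcgr4 and 43.9 ± 40.3 FPKM for Fcgr2b (SD, n = 3). In wt MΦs Fcgr1 stood last with 22.5 ± 7.2 FPKM, against 38.6 ± 9.06 FPKM for Fcgr4 and 34 ± 18.2 FPKM for Fcgr2b (SD, n = 3). The libraries of neighbours in these orders overlapped. The levels are shown in the plot of each member by library.

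**Figure D1:**
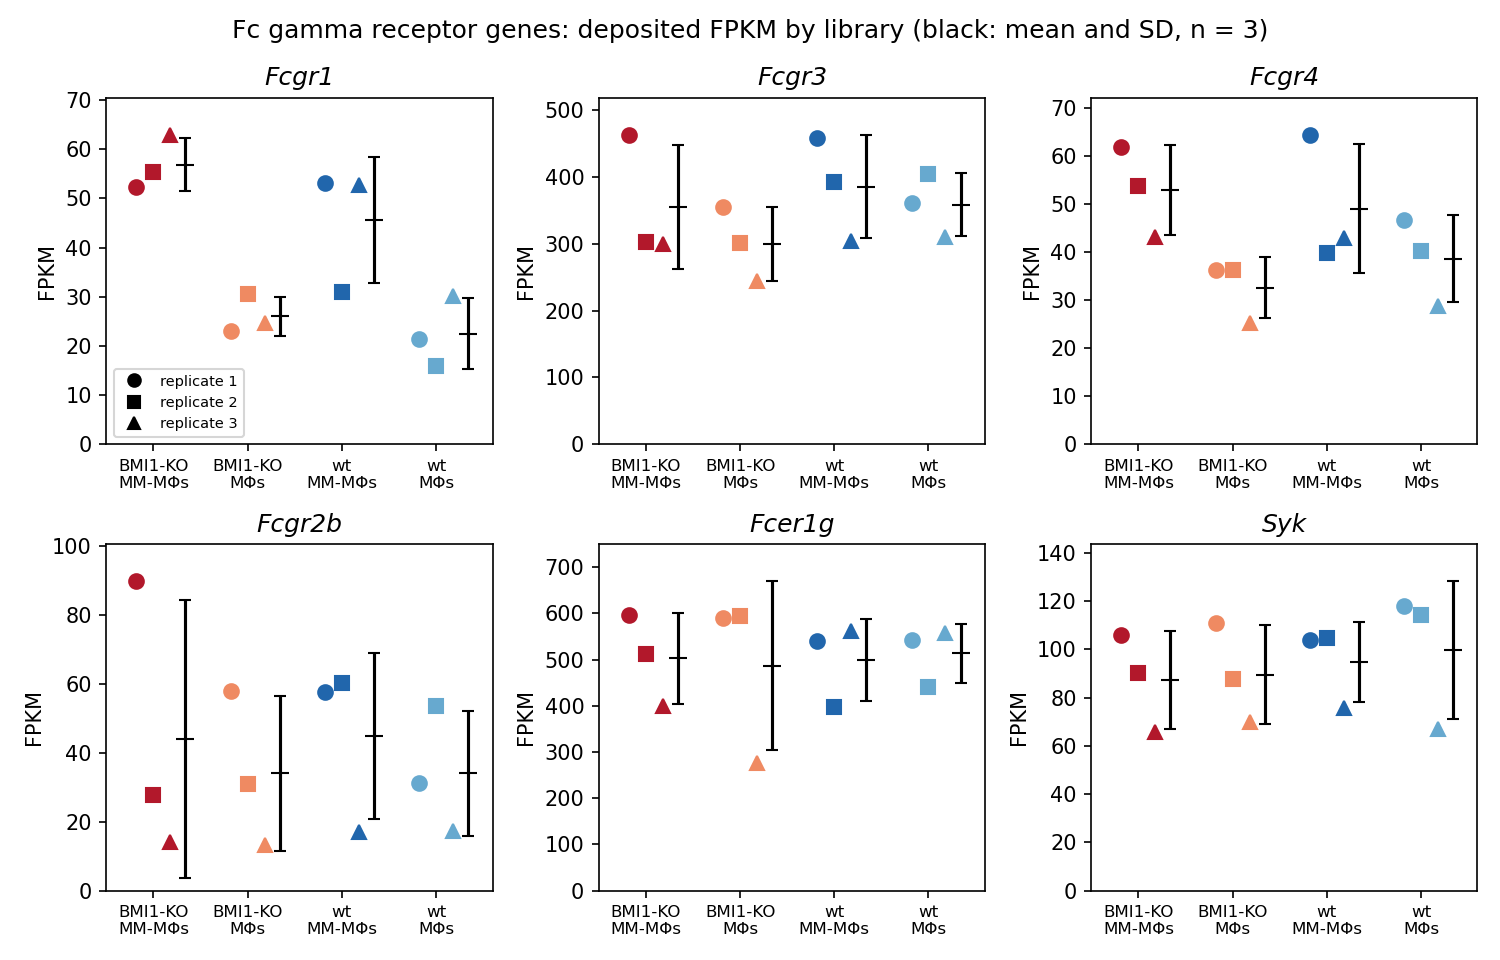
Deposited FPKM of the 6 members in each of the 12 libraries, with a panel per gene, groups from BMI1-KO MM-MΦs on the left to wt MΦs on the right, marker shapes for replicate numbers, and black bars for the mean and SD (n = 3). Fcgr1 averaged 56.9 FPKM in BMI1-KO MM-MΦs, against 26 FPKM in BMI1-KO MΦs, while Fcgr2b had an SD of 40.3 FPKM around a mean of 43.9 FPKM in BMI1-KO MM-MΦs alone.

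The ligand side was read from 7 genes for IgG chains and pentraxins, which Fc gamma receptors also bind; 3 of them passed the filter. Igkc, the kappa light chain constant region, had 37.9, 58.7 and 109 CPM in BMI1-KO MM-MΦs, against 0.832, 1.05 and 2.27 CPM in BMI1-KO MΦs. It had 42.2, 137 and 72.8 CPM in wt MM-MΦs, against 1.22, 16 and 2.64 CPM in wt MΦs. All MM-MΦ libraries were above all MΦ libraries of their genotype, and wt MΦs replicate 2 was the highest MΦ library. Ighg2b, the heavy chain gene of IgG2b, lay alongside with 40.9 to 105 CPM in BMI1-KO MM-MΦs, against 0 to 1.66 CPM in BMI1-KO MΦs, and 42.3 to 121 CPM in wt MM-MΦs, against 0 to 11.5 CPM in wt MΦs. Igkc rose with co-culture in BMI1-KO (5.6 on the log2 scale with an SE of 0.95, edgeR adjusted p = 0.0466) and had a log2 fold change of 3.67 in wt (edgeR adjusted p = 0.295). The BMI1-KO call was lost in 6 of 6 cases with 1 library left out (edgeR adjusted p 0.0564 to 0.264). With the same-numbered MM-MΦ and MΦ libraries of a genotype fitted as pairs (a replicate block), Igkc and Ighg2b passed in both genotypes, with edgeR adjusted p-values between 1.38e-10 and 4.94e-07. The labels do not state this pairing. It was read from these same counts, and every result given with the block rests on it. Transcripts of the chains that 5TGM1 makes were thus counted in the sorted macrophage fraction of the MM-MΦs, and their part in the co-culture differences of the receptors was not tested.

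Fcgr1 encodes the high affinity receptor CD64, the only member able to hold monomeric IgG firmly. It had 141, 142 and 162 CPM in BMI1-KO MM-MΦs, against 59.7, 79.5 and 61.5 CPM in BMI1-KO MΦs. It had 148, 81.8 and 128 CPM in wt MM-MΦs, against 58.6, 41.5 and 71.8 CPM in wt MΦs. Every MM-MΦ library was above every MΦ library of its genotype, with wt MM-MΦs replicate 2 closest to the MΦs. Such separation upward was seen in 3.71% of genes tested in BMI1-KO and 3.04% in wt. The level in MM-MΦs was 2.21-fold that in MΦs in BMI1-KO (log2 fold change 1.15 ± 0.24 SE, 95% interval 0.63 to 1.67, edgeR adjusted p = 0.133) and 2.08-fold in wt (1.06 ± 0.24 SE, 0.54 to 1.58, edgeR adjusted p = 0.29). Neither passed the threshold of 0.05 without the block, a threshold that 0.19% of genes passed in BMI1-KO and 0.0916% in wt. In the fit with the block both passed, with log2 fold changes of 1.15 ± 0.11 SE in BMI1-KO (edgeR adjusted p = 1.02e-06) and 1.05 ± 0.11 SE in wt (edgeR adjusted p = 6.97e-06); 2.17% and 1.1% of genes were called in these fits. Fcgr1 was higher in MM-MΦs in 6 of 6 pairs, by 1.78-fold to 2.63-fold, a count that 4.9% of genes reached. Leaving out any single pair from the block fit kept the call, with log2 fold changes of 1.04 to 1.32 in BMI1-KO and 0.9 to 1.16 in wt. Without pair 2 of wt, which holds the MΦ library with the most Igkc, the value was 1.09 (edgeR adjusted p = 3.19e-05). The remaining wt MM-MΦ libraries still held 42.2 and 72.8 CPM of Igkc, and its part in the Fcgr1 difference was not tested.

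Fcgr4 encodes an activating receptor of intermediate affinity that binds IgG2a and IgG2b. It had 80.8, 67 and 54 CPM in BMI1-KO MM-MΦs, against 46, 45.8 and 30.5 CPM in BMI1-KO MΦs. It had 87.2, 51.2 and 50.5 CPM in wt MM-MΦs, against 61.8, 51 and 33.3 CPM in wt MΦs. The BMI1-KO groups did not overlap, while in wt the groups overlapped and only replicate 1 of the MM-MΦs stood clear of the MΦs. The log2 fold change for co-culture was 0.72 (95% interval 0.1 to 1.34, edgeR adjusted p = 1) in BMI1-KO and 0.37 (-0.25 to 0.99, edgeR adjusted p = 1) in wt. With the block it passed in BMI1-KO (0.73 ± 0.12 SE, edgeR adjusted p = 0.000622) and not in wt (0.37 ± 0.12 SE, edgeR adjusted p = 0.237). Fcgr4 was higher in MM-MΦs in 6 of 6 pairs, but the wt pair of replicate 2 differed by 0.01 on the log2 scale. In the block fit the wt value was 0.55 without that pair (edgeR adjusted p = 0.0337). It was 0.3 without pair 1 and 0.25 without pair 3, and passed in neither case. That the genotypes differ in this response was not shown: the interaction was 0.35 (95% interval -0.52 to 1.22, edgeR adjusted p = 1), and with the block 0.36 (0.01 to 0.7 before adjustment, edgeR adjusted p = 0.999).

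**Figure D2:**
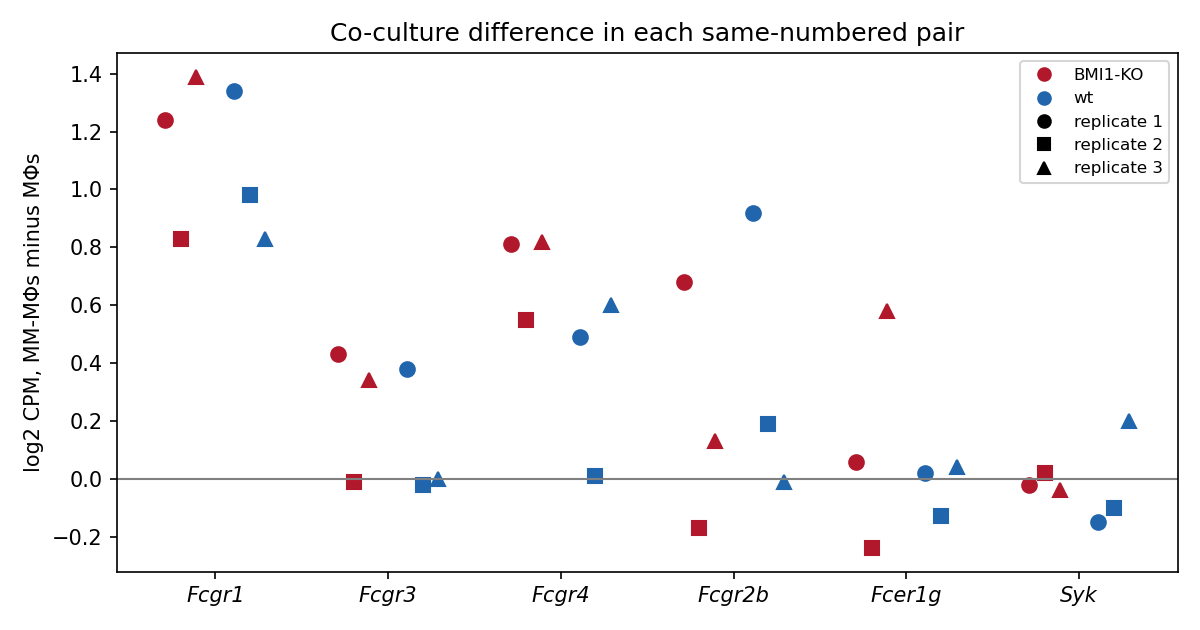
Log2 difference in CPM between the MM-MΦ and the MΦ library of the same replicate number for the 6 members, BMI1-KO pairs left of wt pairs; each point is a pair, its shape gives the replicate number, and the horizontal line marks no difference. All 6 pairs of Fcgr1 lie between 0.83 and 1.39 and all 6 of Fcgr4 between 0.01 and 0.82, while the pairs of Fcgr3, Fcgr2b, Fcer1g and Syk fall on both sides of 0.

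Fcgr3 encodes the low affinity activating receptor CD16. It had 833, 521 and 516 CPM in BMI1-KO MM-MΦs, against 619, 525 and 409 CPM in BMI1-KO MΦs. It had 858, 697 and 495 CPM in wt MM-MΦs, against 659, 709 and 494 CPM in wt MΦs. The groups overlapped in both genotypes, and replicate 1 was the highest library of 3 groups. The log2 fold change for co-culture was 0.27 (95% interval -0.3 to 0.83) in BMI1-KO and 0.14 (-0.43 to 0.71) in wt. With the block the edgeR adjusted p-values were 0.279 and 0.967, and 4 of 6 pairs were higher in MM-MΦs.

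Fcgr2b, the inhibitory receptor, had 539, 159 and 81.1 CPM in BMI1-KO MM-MΦs, against 338, 180 and 74 CPM in BMI1-KO MΦs. It had 359, 356 and 92.1 CPM in wt MM-MΦs, against 190, 313 and 92.6 CPM in wt MΦs. Here the libraries of a group differed far more than the groups did: replicate 3 was the lowest of 3 in all 4 groups. On the log2 scale replicate 3 lay below the mean of replicates 1 and 2 in each group, with differences of -1.85 in BMI1-KO MM-MΦs, -1.73 in BMI1-KO MΦs, -1.96 in wt MM-MΦs and -1.39 in wt MΦs. The log2 fold change for co-culture was 0.4 (95% interval -1.27 to 2.06) in BMI1-KO and 0.44 (-1.22 to 2.1) in wt, intervals wide enough to hold a change larger than that of Fcgr1 in either direction. With the block the values were 0.22 (95% interval -0.08 to 0.52) in BMI1-KO and 0.37 (0.07 to 0.67 before adjustment) in wt (edgeR adjusted p = 0.649 and 0.491). Where the numbers are read as pairs, these narrower intervals did not reach the block values of Fcgr1, 1.15 and 1.05.

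Among the partners, Fcer1g, the common gamma chain without which mouse activating receptors do not reach the surface, had 541, 442 and 347 CPM in BMI1-KO MM-MΦs, against 519, 522 and 233 CPM in BMI1-KO MΦs. It had 507, 355 and 459 CPM in wt MM-MΦs, against 499, 388 and 447 CPM in wt MΦs. All groups overlapped, and BMI1-KO MΦs replicate 3 was the lowest library. Syk, the kinase that docks on the phosphorylated gamma chain, had 1030, 835 and 611 CPM in BMI1-KO MM-MΦs, against 1040, 824 and 631 CPM in BMI1-KO MΦs. In wt it had 1050, 1000 and 661 CPM in MM-MΦs, against 1160, 1080 and 575 CPM in MΦs. Same-numbered libraries were close to each other, and replicate 3 was the lowest in each group. The log2 fold changes for co-culture were 0.06 (95% interval -0.56 to 0.69) and -0.01 (-0.64 to 0.61) for Fcer1g in BMI1-KO and wt, and -0.01 (-0.68 to 0.65) and -0.05 (-0.72 to 0.61) for Syk. A change of 2-fold lay outside all 4 of these intervals.

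Over the 6 members together, edgeR without the block called 0 in either co-culture comparison, with 2 at an unadjusted p under 0.05 in BMI1-KO (Fcgr1 and Fcgr4) and 1 in wt (Fcgr1), beside 2.94% and 1.99% of all genes. DESeq2 called 1 member in each (Fcgr1, adjusted p = 0.0031 in BMI1-KO and 0.0175 in wt by DESeq2), where it called 0.641% and 0.409% of the genes it tested, and limma-voom called 0 members. The fit with the block called 2 in BMI1-KO and 1 in wt. The median log2 fold change of the members was 0.33 in BMI1-KO and 0.25 in wt, beside -0.01 and 0 over all genes tested. In these bulk samples fewer cells of a type and less RNA per cell cannot be told apart.

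BMI1 genotype was set against wt within each culture, in comparisons that share libraries with those of co-culture. In MM-MΦs the levels of Fcgr1 in BMI1-KO (141 to 162 CPM) overlapped those in wt (81.8 to 148 CPM), with a log2 fold change of 0.31 (95% interval -0.2 to 0.83). Fcgr4 had 0.09 (-0.52 to 0.71), Fcgr3 -0.13 (-0.7 to 0.43) and Fcgr2b -0.05 (-1.71 to 1.61). The partners had 0.01 (-0.61 to 0.63) for Fcer1g and -0.13 (-0.8 to 0.53) for Syk. In MΦs the log2 fold changes were 0.22 (-0.29 to 0.74) for Fcgr1, -0.26 (-0.88 to 0.36) for Fcgr4, -0.26 (-0.83 to 0.31) for Fcgr3 and -0.01 (-1.67 to 1.65) for Fcgr2b. Fcer1g had -0.07 (-0.69 to 0.55) and Syk -0.17 (-0.84 to 0.49). No member's libraries separated by genotype in either culture, where 8.85% of genes did so in MM-MΦs and 10% in MΦs. In each comparison edgeR called 0 of 6 members and 0 had an unadjusted p under 0.05, beside 0.0634% and 0.0493% of genes called and 5.02% and 5.77% with such a p. DESeq2, limma-voom and edgeR with the replicate number as a block also called 0 members, and that last fit called 1.27% of genes in MM-MΦs and 1.45% in MΦs, against 0.627% and 0.575% by DESeq2. The intervals leave room for differences below about 2-fold in all members but Fcgr2b, whose interval spans more than 3-fold either way.

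**Figure D3:**
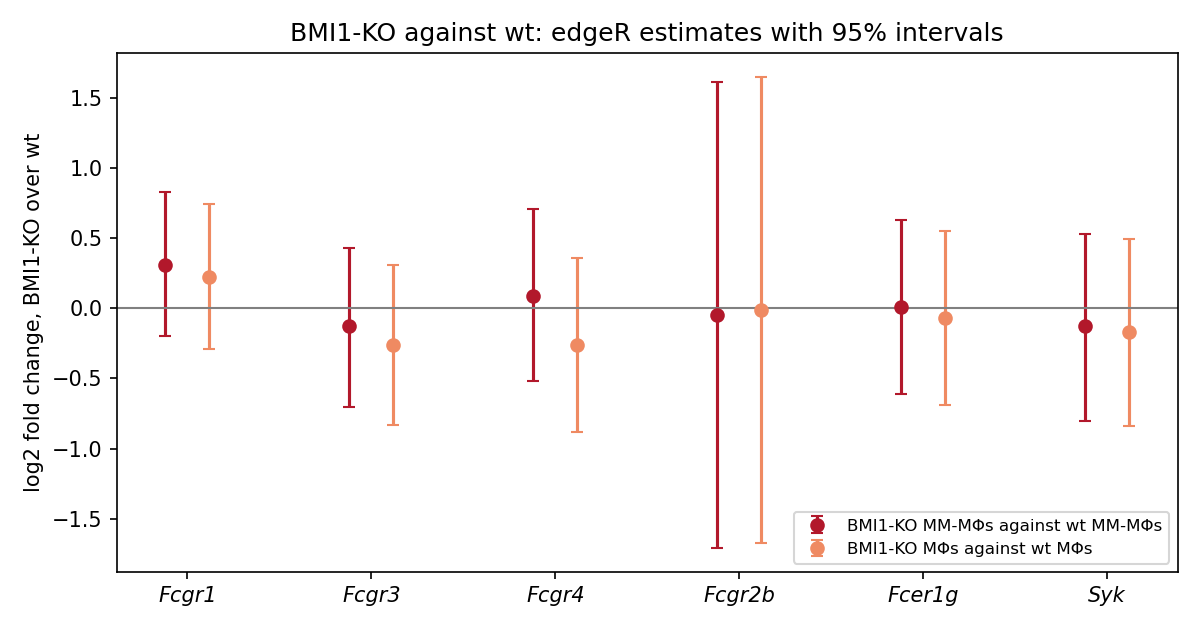
Log2 fold change of BMI1-KO against wt for the 6 members, in MM-MΦs left of MΦs, with 95% intervals from edgeR. Every interval crosses 0, and that of Fcgr2b in MM-MΦs runs from -1.71 to 1.61.

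The response to co-culture was compared between genotypes with the interaction term. It was 0.09 for Fcgr1, 0.35 for Fcgr4, 0.13 for Fcgr3, -0.04 for Fcgr2b, 0.08 for Fcer1g and 0.04 for Syk on the log2 scale. edgeR called 0 of 6 members (adjusted p = 1 for each), 0 had an unadjusted p under 0.05, and DESeq2 and limma-voom called 0. The fit with the block called 0 members too, beside 0.00704% of genes. Over all genes edgeR without it called 0%, and 0.909% had an unadjusted p under 0.05.

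The ratio of activating to inhibitory receptors was the sum of Fcgr1, Fcgr3 and Fcgr4 over Fcgr2b, each gene as counts per kilobase of exon. It was 6.42, 14.8 and 28.8 in BMI1-KO MM-MΦs, against 7.13, 11.9 and 22.2 in BMI1-KO MΦs. In wt it was 10.0, 7.7 and 23.6 in MM-MΦs, against 13.8, 8.61 and 21.2 in MΦs. Replicate 3 had the highest ratio of its group throughout, and all 4 groups overlapped widely. The geometric means were 14.0 in BMI1-KO MM-MΦs, 12.4 in BMI1-KO MΦs, 12.2 in wt MM-MΦs and 13.6 in wt MΦs. On the log2 scale MM-MΦs minus MΦs gave 0.18 in BMI1-KO and -0.16 in wt, and BMI1-KO minus wt gave 0.2 in MM-MΦs and -0.14 in MΦs. Each had a two-sided exact permutation p of 0.8, adjusted to 0.985 over 16 tests, where 3 libraries against 3 allow no p below 0.1. Over the 6 pairs the mean log2 difference was 0.01 ± 0.32 (SD), higher in MM-MΦs in 3 of 6 pairs (exact sign-flip permutation p = 0.906). The value depended on the weight of Fcgr3: as the mean of the log2 levels of the activating receptors it was 0.32 over the pairs (exact sign-flip permutation p = 0.125), and without Fcgr3 it was 0.5 (exact sign-flip permutation p = 0.0625).

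The sum hides how unlike the activating receptors were. Fcgr3 made up 73.5% to 87.8% of it, Fcgr4 7.83% to 13.1% and Fcgr1 3.45% to 15.5%, so the ratio followed Fcgr3 and Fcgr2b. Taken alone, Fcgr1 over Fcgr2b was 0.584, 1.99 and 4.47 in BMI1-KO MM-MΦs, against 0.395, 0.99 and 1.86 in BMI1-KO MΦs. In wt it was 0.925, 0.514 and 3.1 in MM-MΦs, against 0.689, 0.297 and 1.73 in MΦs. Each MM-MΦ library was above the MΦ library of its number, although the groups overlapped. The 6 paired log2 differences were 0.56, 1.01 and 1.27 in BMI1-KO and 0.42, 0.79 and 0.84 in wt, with a mean of 0.82 ± 0.3 (SD). The exact sign-flip permutation p was the smallest that 6 pairs allow, and it became 0.125 after adjustment over the 4 ratios tested. Fcgr3 over Fcgr2b differed by -0.1 ± 0.28 (higher in 3 of 6 pairs) and Fcgr4 over Fcgr2b by 0.26 ± 0.49 (higher in 4 of 6 pairs), with exact sign-flip permutation p-values of 0.406 and 0.219.

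**Figure D4:**
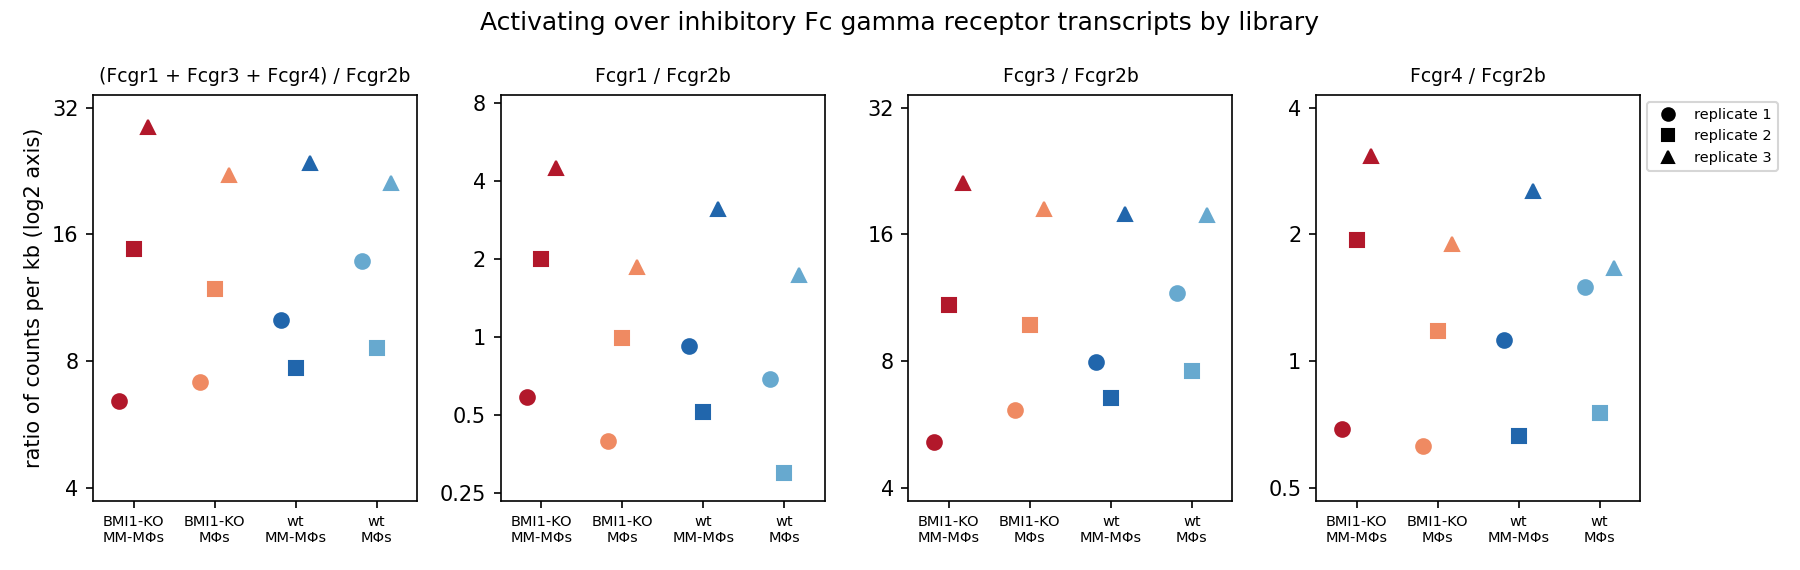
Ratio of the summed activating receptors to Fcgr2b, and of Fcgr1, Fcgr3 and Fcgr4 each to Fcgr2b, in every library (counts per kilobase of exon, log2 axis); groups run from BMI1-KO MM-MΦs on the left to wt MΦs on the right and marker shapes give the replicate number. The summed ratio runs from 6.42 to 28.8 with the groups overlapping, whereas in the panel of Fcgr1 each MM-MΦ marker is above the MΦ marker of the same shape and genotype.

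The replicate number carried most of the spread of several members. It held 89.7% of the variance (sum of squares) of log2 CPM of Syk, 79.3% of that of Fcgr2b, 65.1% of that of Fcgr3 and 45.6% of that of Fcgr4, beside a median of 35.2% over all genes tested. For Fcgr1 it held 4.47%, and co-culture held 76.4%, beside a median of 2.96%. Co-culture held 40.5% of the variance of Fcgr4, 8.54% of that of Fcgr3 and 2.33% of that of Fcgr2b. Genotype held at most 9.96%, for Fcgr3, and the median over all genes was 6.46%. Fcer1g had 56% of its variance outside all of these terms, where the number was a single effect shared by both genotypes. Its lowest library was replicate 3 in both BMI1-KO groups and replicate 2 in both wt groups, which a shared effect cannot hold. This 56% may thus include spread by number within a genotype. Replicate 3 was the lowest of its group in all 4 groups for Fcgr3, Fcgr4, Fcgr2b and Syk, a pattern that 13.6% of genes tested had. What the number stands for is not stated in the labels, and its cause was not tested.

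**Figure D5:**
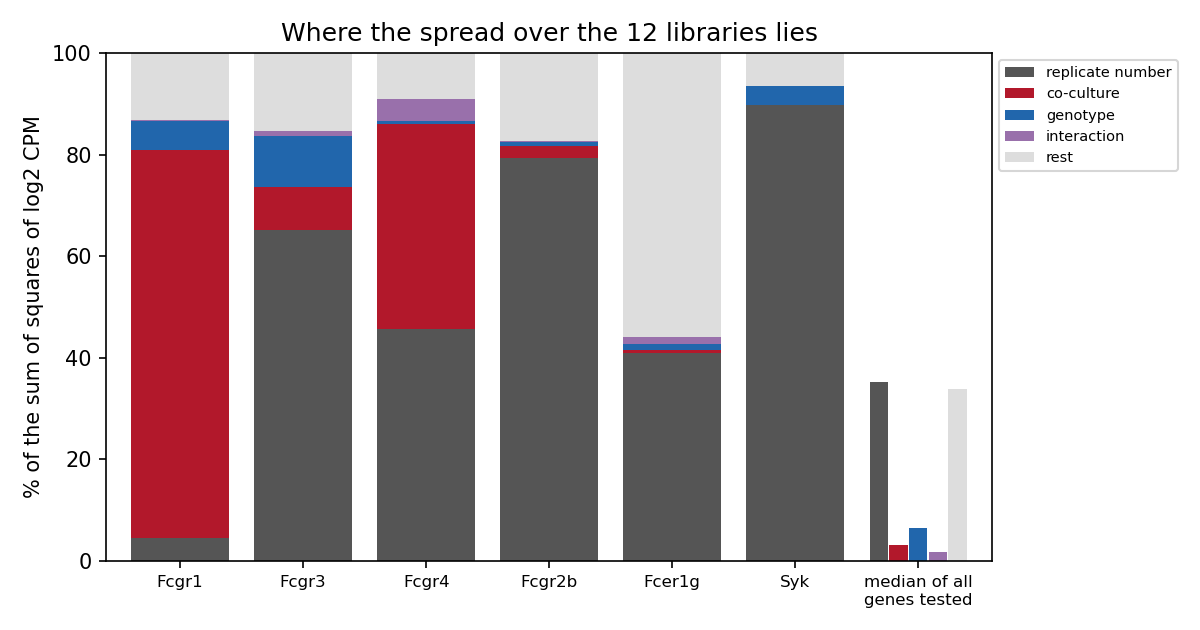
Percent of the sum of squares of log2 CPM over the 12 libraries held by replicate number, co-culture, genotype, their interaction and the rest, as a stacked bar for each member and as separate bars for the medians over all genes tested. Co-culture is the largest share for Fcgr1 at 76.4%, and replicate number for Syk at 89.7% and Fcgr2b at 79.3%.

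Genes downstream of the receptors were read as whole lists. Of 22 kinases and adaptors of activating Fc receptors, all tested, edgeR called 0 in the 4 pairwise comparisons, with 1 at an unadjusted p under 0.05 for BMI1-KO in MM-MΦs, 2 for BMI1-KO in MΦs and 0 for co-culture in either genotype. Their median log2 fold changes were 0.09 for co-culture in BMI1-KO, 0.05 for co-culture in wt, 0.04 for BMI1-KO in MM-MΦs and 0.01 for BMI1-KO in MΦs. With the block 1 passed, Pik3cd, the leukocyte PI3-kinase catalytic subunit, at 0.44 for co-culture in BMI1-KO (edgeR adjusted p = 0.00364), beside 2.17% of all genes. In wt Pik3cd had 0.29 (edgeR adjusted p = 0.148), and its interaction was not called (edgeR adjusted p = 0.999). Of 14 inhibitors of Fc receptor signalling, among them Inpp5d, which encodes the SHIP that Fcgr2b recruits, edgeR called 0. Inpp5d had log2 fold changes of 0.3 for BMI1-KO in MM-MΦs (edgeR adjusted p = 0.926) and 0.23 in MΦs (edgeR adjusted p = 0.946). When numbers were blocked across all 4 groups, although no pairing was assumed between genotypes, the adaptor gene Dok2 was lower for BMI1-KO in MΦs (-0.82, edgeR adjusted p = 0.0158), beside 1.45% of all genes called. Of the 19 phagocytic cup and actin genes tested, out of 20, edgeR called 0 with or without the block, with medians of 0.02 for co-culture in BMI1-KO and 0.02 in wt.

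Other receptors of the same kinds were read next. Of 13 other Fc receptor genes, 4 were tested and 0 were called by edgeR in any comparison, also at an unadjusted p under 0.05. The block called Fcrls, an Fc receptor-like scavenger receptor gene, for co-culture in BMI1-KO (log2 fold change 0.68, edgeR adjusted p = 0.00262), beside 2.17% of all genes. In wt Fcrls had 0.41 (edgeR adjusted p = 0.182), and its interaction was not called (edgeR adjusted p = 0.999). Of 14 other genes for ITIM receptors tested, edgeR called 0 without the block, with 1 at an unadjusted p under 0.05 for co-culture in each genotype and 3 for BMI1-KO in each culture. With the block 4 of the 14 passed for co-culture in BMI1-KO, beside 2.17% of all genes, and 1 in wt, beside 1.1%. Cd72, which encodes an inhibitory C-type lectin, passed in both genotypes (0.89 in BMI1-KO, edgeR adjusted p = 4.64e-06, and 0.59 in wt, edgeR adjusted p = 0.00134). The others in BMI1-KO were Siglec1, a sialic acid binding receptor gene of macrophages (0.59, edgeR adjusted p = 0.00113), Pilra (0.52, edgeR adjusted p = 0.0301) and, in the opposite direction, Cd300a (-0.41, edgeR adjusted p = 0.0121). In wt these had 0.39, 0.38 and -0.06 (edgeR adjusted p = 0.0657, 0.28 and 0.997). The interaction was called for none of them (edgeR adjusted p = 0.999 for each). For genotype, Clec4a2, which encodes the inhibitory lectin DCIR, had log2 fold changes for BMI1-KO of -0.93 in MM-MΦs (edgeR adjusted p = 0.217) and -1.06 in MΦs (edgeR adjusted p = 0.194), and it passed with numbers blocked across all 4 groups (edgeR adjusted p = 0.00385 and 0.00199) and with DESeq2 (DESeq2 adjusted p = 0.0117 and 0.00176). Pecam1, an adhesion receptor gene, was called higher for BMI1-KO in MΦs in that blocked fit (1.2, edgeR adjusted p = 0.0406), which called 1.45% of all genes there.

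The transcription factors known to act on these receptor genes and the interferon inducible genes were measured beside them. Among the factors, Stat3, a mediator of cytokine signals, had log2 fold changes for co-culture of 0.61 in BMI1-KO and 0.55 in wt (edgeR adjusted p = 1 for each). With the block it passed in both, with values of 0.59 in BMI1-KO (edgeR adjusted p = 0.00156) and 0.5 in wt (edgeR adjusted p = 0.0128). Spi1, which encodes PU.1, had log2 fold changes of 0.16 in BMI1-KO and 0.12 in wt. It did not pass with the block (edgeR adjusted p = 0.569 and 0.975). Nor did Irf8, Cebpa, Cebpb, Stat6, Rela, Mitf and Gata2 in either genotype. Of 10 interferon inducible genes tested, out of 12, 3 rose with co-culture in BMI1-KO (0.19% of all genes were called there) and 2 in wt (0.0916% of all genes), and the median log2 fold changes of the list were 1.18 and 0.93, beside -0.01 and 0 over all genes. Ifit1, an antiviral RNA-binding protein gene, rose in both (log2 fold change 2.74 in BMI1-KO, edgeR adjusted p = 0.00145, and 2.27 in wt, edgeR adjusted p = 0.0146), as did its neighbour Ifit3 (3.41, edgeR adjusted p = 0.0046, and 2.89, edgeR adjusted p = 0.0218). With 1 library left out, the wt calls were lost in 5 of 6 cases for Ifit1 and 6 of 6 for Ifit3, and the BMI1-KO calls in none. The BMI1-KO calls were lost with only the 6 libraries compared (edgeR adjusted p = 0.0695 for Ifit1 and 0.11 for Ifit3) and without the 4 libraries numbered replicate 3 (edgeR adjusted p = 0.0625 for each). With the block 9 of the 10 were higher in MM-MΦs than in MΦs in BMI1-KO, beside 2.17% of all genes called, and 6 in wt, beside 1.1%. Irf1, an interferon regulatory factor gene, was not among them in either genotype, with log2 fold changes of -0.07 in BMI1-KO and 0.26 in wt. The part of these genes in the level of Fcgr1 was not tested.

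The genes whose pattern over the 12 libraries was most like that of each member were found by the root mean square difference of centred log2 CPM among 10070 genes with a mean of at least 5 CPM. For Fcgr1, whose own root mean square deviation was 0.63, they were Igtp (0.236), a guanosine triphosphatase gene induced by interferon, Oas1a (0.247), of the antiviral oligoadenylate synthetases, and Stat2 (0.263), a subunit of the interferon type I transcription complex. Oas1a rose with co-culture in both genotypes (log2 fold change 1.03 in BMI1-KO, edgeR adjusted p = 0.0202, and 0.93 in wt, edgeR adjusted p = 0.0452), and so did Stat2 (1.17, edgeR adjusted p = 0.0202, and 1.03, edgeR adjusted p = 0.048). Both were picked for likeness to Fcgr1 in these same libraries, and co-culture held most of the variance of Fcgr1. Their rise was thus largely given by that choice and is no separate result. For both genes the call was lost with 1 library left out in 5 of 6 cases in BMI1-KO and 6 of 6 in wt, with edgeR adjusted p-values up to 0.321. Fcgr4 (own deviation 0.429) had Rapgef2 at 0.164, Il10 at 0.17 and Ecm1 at 0.186. Fcgr2b (own deviation 0.944) had Timp2 at 0.346, Pdgfc at 0.351 and Btg2 at 0.363. The nearest genes of Fcgr3 were Tle3, Rab11fip5 and Osbpl11 at 0.104 to 0.108, those of Fcer1g were Osm, Hivep3 and Sap30l at 0.164 to 0.18, and those of Syk were Inpp4a, Cbl and Dennd4b at 0.084 to 0.096. No member was among the nearest of another, and the closest members were Fcgr3 and Syk at a difference of 0.2. These points share libraries and scaling, and the likeness is a description.

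Markers of other cell types, among them cells that also carry Fc gamma receptors, were read in the same libraries. The 14 plasma cell and myeloma markers summed to 621 to 901 CPM in BMI1-KO MM-MΦs, against 360 to 597 CPM in BMI1-KO MΦs, and to 623 to 1100 CPM in wt MM-MΦs, against 384 to 789 CPM in wt MΦs. At 10, 8, 10 and 9 of them the group mean was at least 1 CPM in these groups, and 1, 3, 0 and 1 were at 0. The markers did not move together. Igkc averaged 68.4 CPM in BMI1-KO MM-MΦs, against 1.38 CPM in BMI1-KO MΦs, and 84 CPM in wt MM-MΦs, against 6.62 CPM in wt MΦs. Sdc1, which encodes the myeloma marker CD138, averaged 16 against 14.4 CPM in BMI1-KO and 75.4 against 75.8 CPM in wt. The 13 neutrophil markers summed to 110 to 347 CPM in BMI1-KO MM-MΦs, 102 to 284 CPM in BMI1-KO MΦs, 140 to 272 CPM in wt MM-MΦs and 130 to 251 CPM in wt MΦs. Csf3r, the most abundant of them, averaged 141, 143, 144 and 142 CPM in these groups. Ltf averaged 17.9 ± 23.6 CPM in BMI1-KO MM-MΦs, against 2.75 ± 1.55 CPM in wt MM-MΦs. Ngp averaged 23 ± 31.7 against 5.08 ± 2.78 CPM there. Mmp8 leaned the other way, with 32.5 ± 12.2 against 41.2 ± 8.37 CPM (SD, n = 3). edgeR called none of these genes for genotype. The 10 NK cell markers summed to at most 0.93 CPM and the 11 mast cell and basophil markers to at most 1.6 CPM in any library, and 0 of either list had a group mean of 1 CPM. The 9 dendritic cell markers summed to 53.4 to 81.6 CPM in BMI1-KO MM-MΦs, 40.3 to 57.5 CPM in BMI1-KO MΦs, 32.6 to 57.6 CPM in wt MM-MΦs and 21 to 42.9 CPM in wt MΦs. The 11 B cell markers, from a lineage whose main Fc gamma receptor is Fcgr2b, summed to 40.8 to 72.9 CPM in BMI1-KO MM-MΦs, 44.9 to 60.6 CPM in BMI1-KO MΦs, 52.8 to 66.3 CPM in wt MM-MΦs and 42 to 71 CPM in wt MΦs. The 10 T cell markers summed to at most 25 CPM in any library. The part of the myeloma, neutrophil and dendritic cell markers in the levels of the members was not tested.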

How the data were processed

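Libraries of total RNA from sorted CD11b+ F4/80+ cells were sequenced by the authors. By the submitters' processing notes reads were converted with bcl2fastq 2.17.1.14, trimmed with cutadapt 1.9.1, aligned to GRCm38 (mm10) with HISAT2 2.0.1 and counted with HTSeq 0.6.1. DESeq2 is named too. Its version, read length, strand setting and annotation release were not given in the sources used here. The authors deposited raw counts per gene and FPKM values per library; tests used the counts, and the FPKM values served to compare levels between genes. Genome positions were checked against GENCODE vM21 and promoter windows were taken from RefSeq.

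Counts were tested with edgeR 4.0.16 in R 4.3.3 (quasi-likelihood test, TMM scaling, 1 mean per group over 12 libraries) on 14197 genes left by filterByExpr (minimum count 10, minimum total 15, large group size 10, proportion 0.7). The Benjamini-Hochberg adjustment ran over all genes tested (threshold 0.05). Log2 CPM used a prior count of 2. The CPM values quoted were scaled to TMM library sizes. Ratios used counts per kilobase of exon and exact permutation tests. The common dispersion was 0.102, and depth of 9662279 to 11142768 counts covers counting error only. The fits were tested on simulated counts with known changes in BMI1-KO MM-MΦs and no pairing between libraries. Of 100 genes changed 2-fold, edgeR without the block called 32 against wt MM-MΦs and 37 against BMI1-KO MΦs. With the block it called 17 against BMI1-KO MΦs. At 4-fold the calls were 87, 90 and 80 of 100 in the same order, so a change near 2-fold can be missed.

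Within a genotype, same-numbered MM-MΦ and MΦ libraries deviated together (correlations across genes of 0.64, 0.18 and 0.6 in BMI1-KO and 0.55, 0.36 and 0.73 in wt), so the numbers were read as pairs there. The labels do not state such pairs, and pairing by mouse and a shared batch cannot be told apart. Between genotypes the correlations were 0.5, 0.03 and 0.51 in MM-MΦs and 0.48, -0.03 and 0.5 in MΦs, and no pairing was assumed.

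The members, lists and tests were chosen with earlier results of these data known. Named were all members, list genes past the threshold and up to 4 with the smallest adjusted p per list. The 3 genes most like each member in pattern were named too. Pik3cd, Fcrls, Pilra, Cd300a, Sdc1, Spi1, Cebpa, Cebpb, Stat6, Rela, Csf3r, Ltf, Ngp and Mmp8 were chosen after their values were seen. The lists were IgG ligands, other Fc receptors, kinases and adaptors, inhibitors, phagocytic cup genes, other ITIM receptors, transcription factors, interferon inducible genes and 8 lists of cell type markers. The values of 1 listed gene are not reported here. Alternatives were DESeq2 1.42.0, limma-voom (limma 3.58.1), other scalings and filters, the replicate block, the 6 libraries compared alone, libraries left out and other forms of the ratio.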

Additional observations from a re-analysis of the deposited data

How the results depend on the processing

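Of 294 values of members under other settings, 286 kept their direction, 8 reversed and 6 gained a call; of 216 with 1 library left out, 49 reversed, and the cause was not tested. On the log2 scale, Fcgr2b for BMI1-KO in MΦs was 0.02 with upper quartile scaling, 0.00 with library totals and 0.05 without the 4 libraries numbered replicate 3. Fcer1g for BMI1-KO in MM-MΦs was -0.02 with the replicate block over all groups, and without replicate 3 it was 0.24 for BMI1-KO in MΦs, -0.08 for co-culture in BMI1-KO and -0.04 for the interaction, where Fcgr1 was -0.18. The activating to inhibitory ratio turned to 0.01 for BMI1-KO in MΦs and 0.15 for co-culture in wt as a mean of log2 levels, to 0.03 and 0.27 without Fcgr3, and to -0.11 over pairs without replicate 3. For co-culture in BMI1-KO it was 0.5 as a mean of log2 levels and 0.73 without Fcgr3, and for BMI1-KO in MM-MΦs 0.37 and 0.49. With 1 library left out, the ratio ranged from -0.32 to 0.76 for BMI1-KO in MM-MΦs, -0.56 to 0.26 for BMI1-KO in MΦs, -0.34 to 0.74 for co-culture in BMI1-KO, -0.63 to 0.18 in wt and -0.06 to 0.11 over pairs.

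For BMI1-KO in MM-MΦs the ranges with 1 library left out were -0.06 to 0.4 for Fcgr4, -0.4 to 0.06 for Fcgr3, -1.16 to 0.39 for Fcgr2b, -0.16 to 0.17 for Fcer1g and -0.32 to 0.05 for Syk. For BMI1-KO in MΦs they were -0.65 to 0.48 for Fcgr2b, -0.24 to 0.23 for Fcer1g and -0.42 to 0.01 for Syk. For co-culture in BMI1-KO they were 1.07 to 1.29 for Fcgr1, 0.56 to 0.87 for Fcgr4, -0.71 to 1.03 for Fcgr2b, -0.22 to 0.24 for Fcer1g and -0.2 to 0.18 for Syk, and in wt 0.87 to 1.27 for Fcgr1, 0.06 to 0.58 for Fcgr4, -0.06 to 0.31 for Fcgr3, -0.13 to 0.12 for Fcer1g and -0.31 to 0.13 for Syk. For the interaction they were -0.11 to 0.28 for Fcgr1, -0.14 to 0.33 for Fcgr3, -1.15 to 0.59 for Fcgr2b, -0.21 to 0.25 for Fcer1g and -0.15 to 0.3 for Syk. In the fit with the replicate block and 1 pair left out, an alternative chosen after seeing the data, they were -0.03 to 0.42 for Fcgr2b, -0.08 to 0.32 for Fcer1g and -0.03 to 0.01 for Syk in BMI1-KO, and -0.01 to 0.2 for Fcgr3, -0.06 to 0.04 for Fcer1g and -0.13 to 0.05 for Syk in wt.

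Over all genes, edgeR called 9 for BMI1-KO in MM-MΦs, 7 for BMI1-KO in MΦs, 27 for co-culture in BMI1-KO and 13 in wt. In the same order DESeq2 called 89, 80, 91 and 58 (1 member in each co-culture comparison), edgeR with no filter called 21, 14, 42 and 22 (Fcgr1 in BMI1-KO, 1 member), the 6 libraries alone gave 4, 2, 0 and 6, and 1 library left out gave 3 to 6, 2 to 4, 4 to 23 and 0 to 3. With library totals 13 and 6 were called for co-culture in BMI1-KO and wt, without the 4 libraries numbered replicate 3 it was 1 in each and 5 for BMI1-KO in MΦs, and limma-voom called 2 in wt. The replicate block within genotype called 308 genes with 2 members in BMI1-KO, 156 with 1 member in wt and 1 for the interaction, and the block over all groups called 181 for BMI1-KO in MM-MΦs and 206 in MΦs; it changed no call of a member other than Fcgr1 in both genotypes and Fcgr4 in BMI1-KO. Of 380 values of the other genes named, 0 reversed, 32 lost a call and 28 gained one; the call of Igkc was lost in 6 of 6 cases with 1 library left out (edgeR adjusted p 0.0564 to 0.264). Each member had at least 337 counts in every library, and with 3 libraries a group the 95% intervals were widest for Fcgr2b.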
